A study of Bos taurus with 6 samples.

Results

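Sperm RNA was measured for 6 genes, BCL2L1, DOCK2, EHD2, GSG1L, PDE7B and THRB, in a pair of monozygotic twin Holstein bulls named Bull1 and Bull2. They were chosen by their methylation and their mean level. All are on a list of 14 genes differentially methylated between the twins and also in earlier work on bull, buffalo or human sperm, and all had a mean of at least 1 FPKM over the 6 libraries. HSPA1L of that list also had such a mean and is not among the 6. FPKM are fragments per kilobase of gene length, scaled to the reads of a library. The 6 genes are 6 of 21070 genes with values. Methylation and the mean levels are therefore given below only as descriptions.

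The study described the semen of Bull1 as the better of the pair, and asked whether methylation differences go together with differences in sperm RNA. Each bull gave 3 replicate libraries from semen passed through Percoll, a density step meant to remove somatic cells, and there was no treatment or further group. The libraries of a bull come from 1 animal, so each p-value sets the difference between these bulls against the spread between libraries. Part of that spread may be technical, and the p-values say nothing about other bulls. Before sequencing, polyadenylated RNA was copied and amplified by the Smart-seq2 method, which serves samples with little RNA. The age of the bulls at collection of the semen used for RNA is not given in the sources used here.

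Mature sperm are close to silent in transcription, and their RNA is mostly what was left from earlier stages of spermatogenesis, together with any RNA of other cells that remain in semen. Methylation at a promoter commonly goes with a silent gene, whereas methylation inside a gene body has no such fixed relation to its transcript. The study placed a differentially methylated region (DMR) in the promoter, 5′UTR and an exon of PDE7B, in the promoter and an exon of GSG1L, and in the 5′UTR, an exon and an intron of BCL2L1. In EHD2 it lay in an exon and an intron, and in DOCK2 and THRB in an intron. BCL2L1, EHD2 and GSG1L were listed as hypermethylated in Bull1, and DOCK2, PDE7B and THRB as hypomethylated in Bull1.

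The libraries held between 486638 and 681933 reads counted on genes, which were recovered from the FPKM, since each value stands for a whole number of reads. Whole reads, within 0.0003 of a read, were found for 21070 of 21070 genes. In a control of 300 genes above 0 in every library, the recovered totals gave whole reads for 300, and totals moved by 1 library for 0. The totals were found from these same FPKM, and the 300 genes had already been found whole in the step before. Genes with libraries at 0, as BCL2L1, EHD2, GSG1L and THRB, were not in the control. Their reads are less tightly fixed, since fewer values have to be whole. Pearson's r of log2(FPKM + 1) lay between 0.435 and 0.558 over the 15 pairs of libraries. Of the markers of sperm that could be matched by symbol, only SPATA16, an acrosome gene of spermatids, had reads in every library, between 20 and 131. Some markers of other cells were present in every library as well. COL14A1, a collagen gene, had between 45 and 116 reads, FBN1, which encodes fibrillin, between 96 and 248, and VIM between 13 and 86. Others were mostly absent. DES had 0, 0 and 0 reads in Bull1 and 4, 5 and 0 in Bull2, and GFAP had 0, 32 and 0 in Bull1 and 0, 0 and 1 in Bull2. The 5 matched genes of 21 on the sperm list, SPATA16, RNF151, HSPA1L, TEX29 and PADI6, had summed levels of 134 to 178 FPKM in Bull1 and 91.9 to 107 FPKM in Bull2, so the bulls did not overlap in this sum. None of the 5 genes separated the bulls alone (0 of 5, where 9.73% of all genes tested did not overlap). SPATA16, the most abundant, was lower on average in Bull1, with 74.1 ± 55.6 FPKM against 83.7 ± 24.0 (SD, n = 3 libraries each). Different genes carried the sum in different libraries of Bull1. In replicates 1, 2 and 3 SPATA16 was at 79.1, 127 and 16.2 FPKM, and HSPA1L at 62.2, 2.27 and 57.4 FPKM. HSPA1L is itself a gene of the list of 14, and without it the sums of the bulls overlapped. The sum itself was not tested. The 5 matched genes of 7 on the list of other somatic cells, VIM, DES, GFAP, COL14A1 and FBN1, had summed levels of 56.2 to 154 FPKM in Bull1 and 90.5 to 139 FPKM in Bull2. Within this list only FBN1 did not overlap between the bulls (1 of 5 genes, where 9.73% of all genes tested did not overlap). It was at 39.0, 18.8 and 30.5 FPKM in Bull1 and at 43.3, 45.9 and 55.4 FPKM in Bull2 (limma adjusted p = 0.825). Of the 5 genes 3 had a lower and 2 a higher mean of log2(FPKM + 1) in Bull1. The part of these differences in the values of the 6 genes was not tested. The protamine genes and the leukocyte gene PTPRC were not analysed here, because the identifiers of the file were paired with symbols only for genes with a DMR.

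The 6 genes fell into 2 sets by level. DOCK2, PDE7B and THRB had means of 30.0, 28.5 and 18.0 FPKM over the 6 libraries, above 72.0%, 70.7% and 59.0% of all genes. GSG1L, EHD2 and BCL2L1 had means of 1.86, 1.80 and 1.79 FPKM, above 14%, 13.6% and 13.6% of all genes. The order within each set was not settled by the libraries. DOCK2 was above PDE7B in 3 of 6 libraries, PDE7B above THRB in 5 of 6, GSG1L above EHD2 in 2 of 6 with 1 tie, and EHD2 above BCL2L1 in 2 of 6 with 2 ties. Between the sets, DOCK2 was above each of the lower 3 genes in 6 of 6 libraries and PDE7B in 5 or 6, whereas THRB was above GSG1L in 4 of 6, and above EHD2 and BCL2L1 in 5 of 6.

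The 6 genes had 953 reads in all, of which 639 were on DOCK2. The lower 3 genes rested on few reads, with 11 for GSG1L, 20 for EHD2 and 17 for BCL2L1 over the 6 libraries together. Of their 18 single values 10 were 0, and genes with 0.5 to 2 times as many reads as each of them were above 0 in a median of 3 of the 6 libraries. These read numbers are the smallest that give whole reads, and would be larger by a whole factor if the gene length used by the authors was a multiple of the length recovered here.

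**Figure D1:**
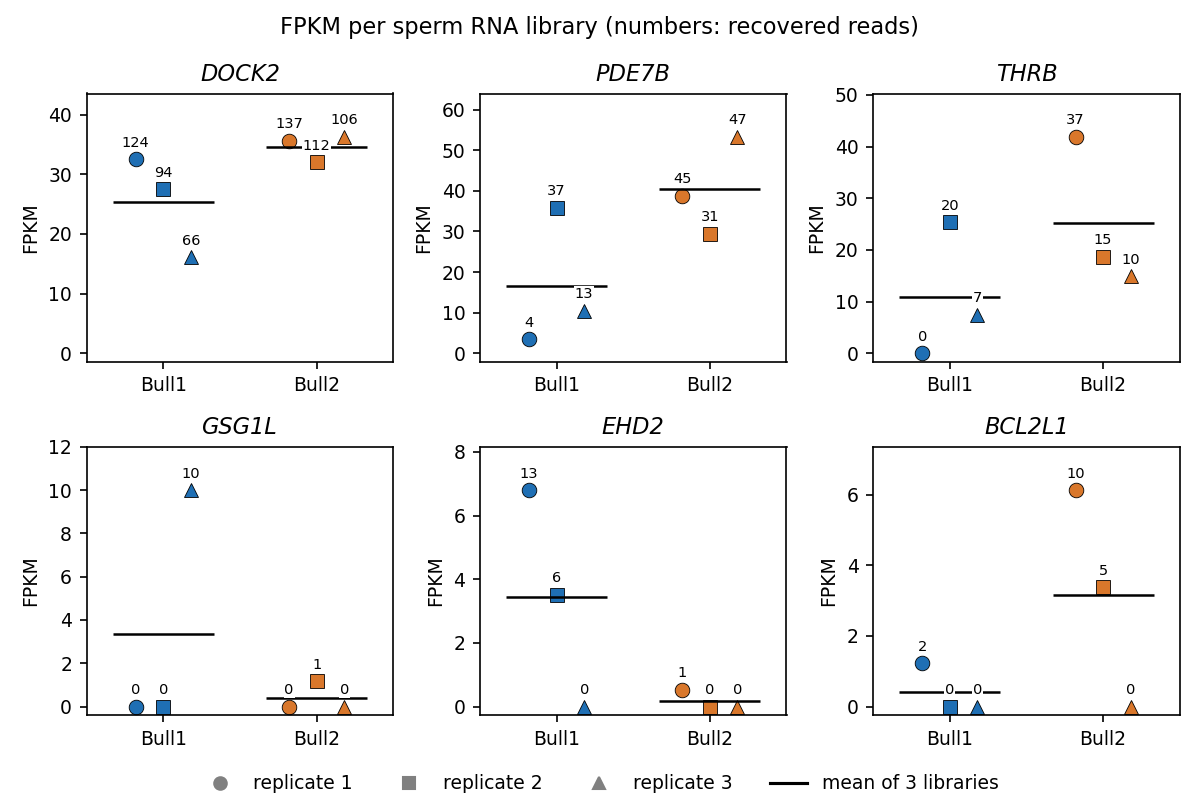
FPKM of the 6 genes (vertical axis, own scale and starting near 0 in each panel) in the 3 libraries of Bull1 and the 3 of Bull2, with the recovered reads written at each point and the mean of each bull as a line. The points of both bulls overlap in every panel, and the lower row shows 10 of 18 values at 0.

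DOCK2 (ENSBTAG00000014612, chromosome 20 of UMD3.1) encodes an exchange factor that activates the small GTPase RAC and is known for the migration of lymphocytes and neutrophils. It was at 32.5, 27.5 and 16.1 FPKM in replicates 1, 2 and 3 of Bull1, from 124, 94 and 66 reads. In Bull2 it was at 35.6, 32.0 and 36.3 FPKM, from 137, 112 and 106 reads. The libraries of Bull2 lay close together, and replicate 1 of Bull1 was above the lowest of them. The mean was 25.4 ± 8.37 FPKM for Bull1 against 34.7 ± 2.28 for Bull2 (SD, n = 3 libraries each). The log2FC, which is Bull1 minus Bull2 on the log2(FPKM + 1) scale in this and all later values, was -0.49 with a standard error of 0.62 and a 95% interval from -1.90 to 0.92 (limma adjusted p = 0.863). The difference was not beyond the spread between libraries (two-sided exact permutation test, p = 0.2). No exact test of 3 libraries against 3 can give a p-value under 0.1.

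Because DOCK2 is best known from leukocytes, the other leukocyte genes that could be matched are given beside it. These were IL2RA, a subunit of the interleukin-2 receptor, and HLA-DMA, which serves antigen loading, so 2 of the 16 other genes of the leukocyte list were matched. In Bull1, IL2RA had 6, 33 and 95 reads, and in Bull2 it had 24, 26 and 3. HLA-DMA had 0, 40 and 7 reads in Bull1 and 0, 35 and 1 in Bull2. Their summed level ranged from 3.66 to 120 FPKM in Bull1 and from 5.24 to 101 in Bull2. The part of leukocyte RNA in the DOCK2 values was not tested. In bulk RNA, a different number of cells of a type and a different amount of RNA per cell cannot be told apart.

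PDE7B (ENSBTAG00000015888, chromosome 9) encodes a phosphodiesterase that breaks down cAMP, the second messenger that drives sperm capacitation and motility. It was at 3.47, 35.8 and 10.5 FPKM in replicates 1, 2 and 3 of Bull1, from 4, 37 and 13 reads. In Bull2 it was at 38.8, 29.4 and 53.3 FPKM, from 45, 31 and 47 reads. Replicates 1 and 3 of Bull1 were below every library of Bull2, and replicate 2 of Bull1 was within the range of Bull2. The mean was 16.6 ± 17.0 FPKM for Bull1 against 40.5 ± 12.1 for Bull2 (SD, n = 3 each), with a log2FC of -1.70, a standard error of 0.90 and a 95% interval from -3.75 to 0.34. The unadjusted limma p of 0.0922 was the lowest of the 6 genes, and the adjusted p was 0.825 over all genes tested (exact permutation test, two-sided, p = 0.2). Without replicate 2 of Bull1 the log2FC was -2.49 with an unadjusted limma p of 0.0199 (adjusted p = 0.612), and without replicate 1 of Bull1 it was -0.97.

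The other matched gene of the cAMP list was AKAP1, which anchors protein kinase A, the main target of cAMP, at mitochondria. AKAP1 was at 40.5 ± 24.9 FPKM for Bull1 against 16.3 ± 18.1 for Bull2 (SD, n = 3 each), with a log2FC of 1.60 (limma adjusted p = 0.825). The values of PDE7B and AKAP1 thus lay in opposite directions, neither beyond the spread between libraries, and the other 17 genes of this list were not analysed here.

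THRB (ENSBTAG00000017802, chromosome 27) encodes the thyroid hormone receptor beta, a nuclear receptor that switches target genes on or off with thyroid hormone. It was at 0, 25.4 and 7.44 FPKM in replicates 1, 2 and 3 of Bull1, from 0, 20 and 7 reads. In Bull2 it was at 41.9, 18.7 and 14.9 FPKM, from 37, 15 and 10 reads. Replicate 1 of Bull1 was the lowest library, with a count of 0. A fixed limit of 3 reads was taken for counting error, with no confidence level computed, and is 3.41 FPKM in that library. The mean was 11 ± 13.1 FPKM for Bull1 against 25.1 ± 14.6 for Bull2 (SD, n = 3 each). The log2FC was -1.97 (standard error 1.31), with a 95% interval from -4.94 to 1.0 (limma adjusted p = 0.825), and replicate 2 of Bull1 was above replicates 2 and 3 of Bull2 (exact permutation test, two-sided, p = 0.3). The library with 0 reads set much of this difference, since the log2FC was -0.67 without replicate 1 of Bull1 and -3.03 without replicate 2 of Bull1.

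From the nuclear receptor list, NR2F1, an orphan receptor gene, is given beside THRB. It had 3, 2 and 8 reads in Bull1 and 0, 5 and 7 in Bull2, with a log2FC of 0.19 (limma adjusted p = 0.987). Neither of these receptor genes passed the test.

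GSG1L (ENSBTAG00000004607, chromosome 25) encodes a claudin-like membrane protein that acts as an auxiliary subunit of AMPA-type glutamate receptors in neurons. It had 10 reads in replicate 3 of Bull1, which was 10 FPKM, 1 read in replicate 2 of Bull2, which was 1.17 FPKM, and 0 reads in the other 4 libraries. A single library therefore held 90.9% of its reads. The means were 3.34 ± 5.78 FPKM for Bull1 against 0.391 ± 0.677 for Bull2 (SD, n = 3 each). The same fixed limit of 3 reads lay between 3.0 and 4.21 FPKM in the 6 libraries. The log2FC was 0.78 (standard error 1.21), with a 95% interval from -1.96 to 3.52 (limma adjusted p = 0.900, and p = 1 in the exact permutation test, two-sided). Without replicate 3 of Bull1 the gene was below the filter and was not tested.

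EHD2 (ENSBTAG00000021191, chromosome 18) encodes an ATPase that binds membranes and stabilises caveolae, the small pits of the plasma membrane. It was at 6.80, 3.51 and 0 FPKM in replicates 1, 2 and 3 of Bull1, from 13, 6 and 0 reads, and at 0.520, 0 and 0 FPKM in Bull2, from a single read in replicate 1. Replicate 3 of Bull1 was at 0 like the lowest libraries of Bull2, and 65.0% of all its reads came from replicate 1 of Bull1. The mean was 3.44 ± 3.40 FPKM for Bull1 against 0.173 ± 0.300 for Bull2 (SD, n = 3 each). The log2FC was 1.51 (standard error 1.14), with a 95% interval from -1.06 to 4.08 (limma adjusted p = 0.825), and the libraries of the bulls overlapped (two-sided exact permutation test, p = 0.4). With the reads of each bull summed, EHD2 was at 3.35 FPKM in Bull1, with an exact Poisson 95% interval from 2.02 to 5.23, and at 0.195 in Bull2, with an interval from 0.00493 to 1.09. These intervals do not overlap, but they are intervals for counting error only, because copies made by amplification were counted as reads of their own, and they leave out the spread between libraries. Without replicate 1 of Bull1 the gene was below the filter and was not tested.

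BCL2L1 (ENSBTAG00000006526, chromosome 13) encodes a member of the BCL2 family whose long form, BCL-XL, protects mitochondria and keeps cells from apoptosis, while its short form does the opposite. It was at 1.23, 0 and 0 FPKM in replicates 1, 2 and 3 of Bull1, from 2, 0 and 0 reads. In Bull2 it was at 6.14, 3.38 and 0 FPKM, from 10, 5 and 0 reads. Each bull had libraries without a read, so the bulls overlapped at 0, and the values per gene do not separate the 2 forms. The mean was 0.412 ± 0.713 FPKM for Bull1 against 3.17 ± 3.07 for Bull2 (SD, n = 3 each), with a log2FC of -1.27, a standard error of 1.16 and a 95% interval from -3.90 to 1.37 (limma adjusted p = 0.825; exact permutation test, two-sided, p = 0.4). Without replicate 1 of Bull2 the gene was below the filter and was not tested. The pooled reads gave 0.416 FPKM in Bull1, with an interval from 0.0504 to 1.5, and 3.45 in Bull2, with an interval from 1.93 to 5.69, for counting error only.

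**Figure D2:**
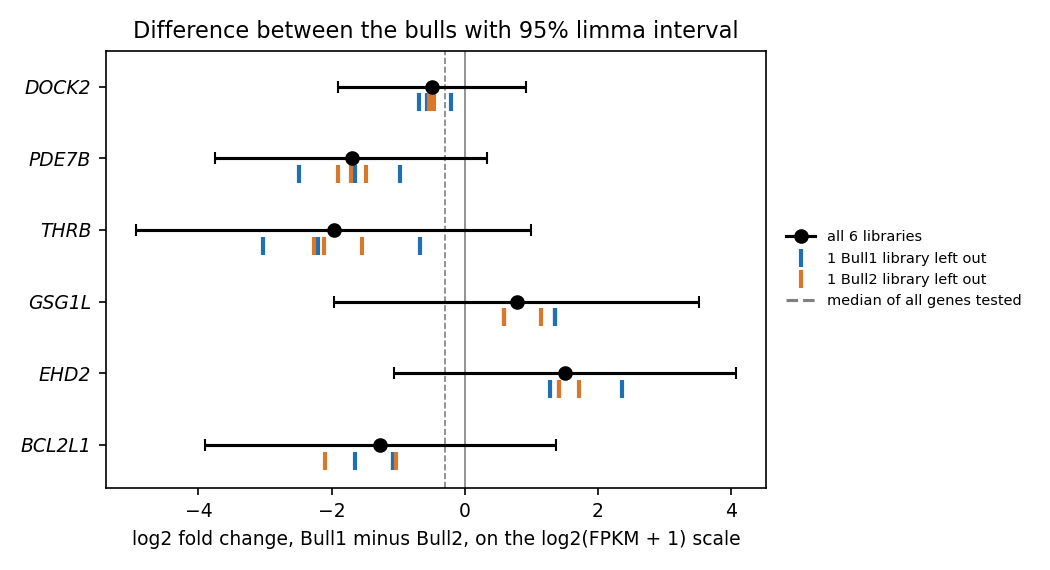
The log2FC of each gene on the log2(FPKM + 1) scale (horizontal axis, Bull1 minus Bull2) with its 95% limma interval, ticks for the fits that each left out 1 library, and a dashed line at the median of all genes tested, -0.29. All 6 intervals include 0, and no tick drawn lies on the other side of 0 from its gene's value. GSG1L, EHD2 and BCL2L1 have 5 ticks each, because without the library with most of their reads they were below the filter. For GSG1L the means without that library were 0 FPKM in Bull1 against 0.391 in Bull2, the reverse direction.

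Among the 6 genes, 0 had a limma adjusted p under 0.05, where 0 of 19339 tested genes did (0%), and 0 had an unadjusted p under 0.05, where 1017 genes did (5.26%). The libraries of Bull1 and Bull2 were fully apart in 0 of the 6 genes, against 1882 of the 19339 genes (9.73%), of which those higher in Bull1 were 3.3% and those lower in Bull1 6.43% of all tested. These counts are near the background. Of the 6 genes 4 had a log2FC below 0, as had 59.4% of all genes tested, whose median was -0.29. The median log2FC of the 6 was -0.88, a description only, since BCL2L1, EHD2 and GSG1L reached a mean of 1 FPKM only through the bull in which they were higher. The 95% intervals of the 6 genes reach from -4.94 to 4.08, so a difference of 2 on the log2 scale, the threshold used here, lay inside the interval of each gene except DOCK2.

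The direction of the expression values was set beside the direction of methylation. THRB, PDE7B and DOCK2, hypomethylated in Bull1, had lower means in Bull1, and EHD2 and GSG1L, hypermethylated in Bull1, had higher means in Bull1. BCL2L1, hypermethylated in Bull1 with a DMR that reaches the 5′UTR, had a lower mean in Bull1. The directions were thus the same in 5 of 6 genes, but EHD2, GSG1L and BCL2L1 had to differ in one direction or the other, because they passed the limit of 1 FPKM only through the bull in which they were higher and had 1, 1 and 2 reads in the other bull. None of these expression differences was beyond the spread between libraries. PDE7B and GSG1L, the genes with a DMR in the promoter, were both among the 5, but 90.9% of the reads of GSG1L came from 1 library. Without that library the means of GSG1L lay in the reverse direction. Other genes with a DMR in the promoter were not split by the direction of methylation. Among the other genes with a DMR that were tested, 58 of the 139 hypermethylated in Bull1 had a log2FC above 0, which is 41.7%, and 29 of the 48 hypomethylated in Bull1 had a log2FC below 0, with medians of -0.27 and -0.31. Both medians were close to the -0.29 of all genes tested.

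The spread between libraries was set against that of genes with 0.5 to 2 times as many reads. DOCK2 had a coefficient of variation over the 6 libraries of 25%, where the median of 2745 genes with similar reads was 39.7% and 14.3% of them varied less. The coefficient of variation was 65.1% for PDE7B and 81.1% for THRB, near the medians of 68.9% and 89.2% of their like genes. It was 140% for BCL2L1, 155% for EHD2 and 216% for GSG1L, against medians of 148%, 142% and 160%. Counting error alone would give 9.69% for DOCK2, 18.4% for PDE7B, 26.0% for THRB and between 54.8% and 73.9% for the lower 3 genes. The median gene was above counting error in every class of read number too. Apart from DOCK2 and GSG1L, each of the 6 was close to the median of genes with similar reads.

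**Figure D3:**
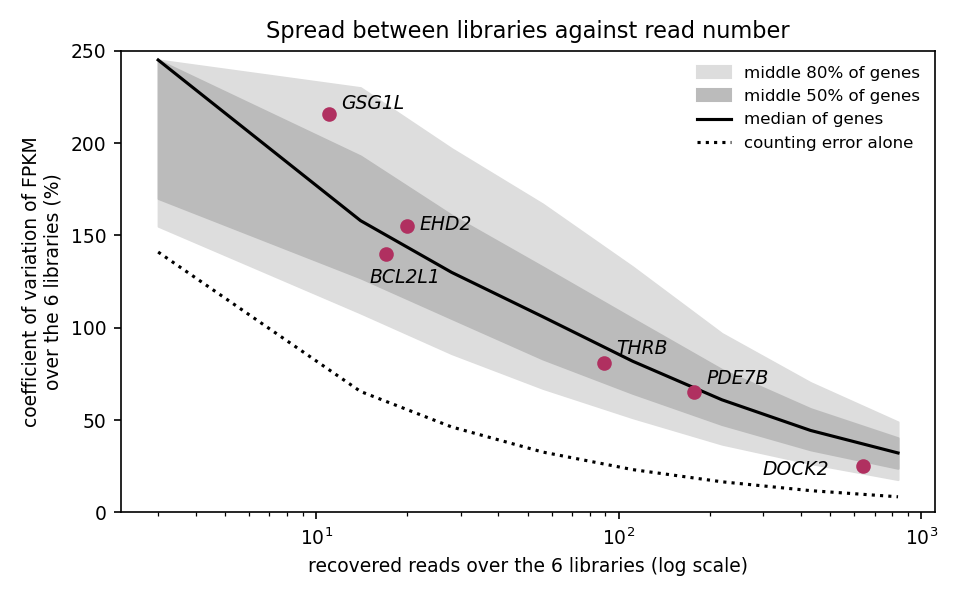
Coefficient of variation of FPKM over the 6 libraries (vertical axis) against the reads of a gene over the 6 libraries (horizontal axis, log scale), with the 6 genes as points over the median and the middle 50% and 80% of all genes in classes of read number, and counting error alone as a dotted line. DOCK2, at 25%, lies below the median line, GSG1L, at 216%, above it, and the median line and all 6 points lie above the dotted line.

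The profile of each gene over the 6 libraries was compared with those of 164 other tested genes with a DMR and a symbol, as a description only, since 6 libraries are few and the closest of many profiles is always close. PDE7B and THRB were the most alike among the 6 genes themselves, with a Pearson's r of 0.91 and a Spearman's rho of 0.66 on 6 libraries, both being lowest in replicate 1 of Bull1. DOCK2 and GSG1L were the least alike, with r = -0.90 and rho = -0.68, because the only library of GSG1L with several reads, replicate 3 of Bull1, was the lowest of DOCK2. The other 13 pairs lay between r = -0.57 and 0.49.

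The closest profile to THRB was that of UBE2E2, a ubiquitin-conjugating enzyme gene that is also on chromosome 27, with r = 0.93 and rho = 0.60. UBE2E2 had 0, 6 and 8 reads in Bull1 and 29, 16 and 15 reads in Bull2, and so shared with THRB the library at 0 and the highest library. The closest to PDE7B was ARHGAP24, a GTPase-activating protein gene (r = 0.96, rho = 0.71), with 30, 74 and 48 reads in Bull1 and 62, 57 and 61 in Bull2. The closest to DOCK2 was ZSWIM5 (r = 0.96, rho = 0.89), with 39, 33 and 24 reads in Bull1 and 57, 40 and 41 in Bull2. Both of these genes were read in every library, as were PDE7B and DOCK2.

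For the lower 3 genes likeness meant the same libraries at 0. TMEM64 was closest to BCL2L1 (r = 1.0, rho = 1.0), with reads in the same 3 libraries, and SLC6A20, an amino acid transporter gene, to EHD2 (r = 0.94, rho = 1.0), also in the same 3. HSPBP1, which encodes a cofactor of HSP70 chaperones, was closest to GSG1L (r = 1.0, rho = 1.0), with 21 reads in replicate 3 of Bull1 and 2 in replicate 2 of Bull2. At this depth many genes have reads in few libraries, and 3 of the 164 candidates shared the largest rho with GSG1L.

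The other 8 genes of the list of 14 show where the limit of 1 FPKM fell. HSPA1L, a chaperone gene of spermatids, had a mean of 25 FPKM and a log2FC of 1.95 (limma adjusted p = 0.825). The study called this gene differentially expressed from its pooled replicates. It also found HSPA1L higher in the sperm of Bull1 by quantitative PCR, a measure not used here. Just outside the limit were ATN1 at 0.501 FPKM, from 3 reads in replicate 2 of Bull1, and FOXK1 at 0.484 FPKM, from 1 read in replicate 3 of Bull2. PADI2 and ZFYVE28 followed at 0.125 and 0.113 FPKM, with 1 read each. Just inside it were BCL2L1, EHD2 and GSG1L at 1.79, 1.80 and 1.86 FPKM. CELF6, HSPA1A and ID1 were not analysed here.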

How the data were processed

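The sperm RNA of 2 bulls, with 3 libraries each, was analysed from values that the authors deposited in FPKM per gene and library. Per the methods and the submitters' processing notes, reads were checked with FastQC 0.11.2, trimmed with Trimmomatic 0.35, mapped to UMD3.1 with TopHat 2.0.12 and counted per gene with HTSeq 0.6.0. The annotation release and the strand setting are not given in the sources used here. For their own calls the authors pooled the replicates, whereas the separate libraries were tested here.

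Identifiers were paired with symbols, gene elements and the direction of methylation through the study's list of genes with a DMR, of which 248 of 309 had values. Its methylation levels are not reported. The RefSeq gene table of ARS-UCD2.0 matched 0 identifiers, and no sequence is shown. The members, gene lists and tests were chosen with earlier results of these data known. The genes named are the 6, the rest of the list of 14, matched genes of family and marker lists, and the closest profile to each of the 6. The lists for BCL2, DOCK and RAC, EHD and caveolae, GSG1 and AMPA receptors matched only the member itself, and the epithelial list matched 0 genes. A matched gene of these lists is not reported here.

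Genes with a mean of at least 1 FPKM were fitted with limma 3.58.1 (R 4.3.3) on log2(FPKM + 1) with a variance trend and Benjamini-Hochberg adjustment over 19339 genes. A fold change on this scale understates the change of low genes. Reads were recovered as the smallest whole numbers, and came to between 98.4% and 98.8% of the totals. The recovery and the fit were also run on simulated data, whose outcome is not given here. Python 3.11.15, numpy 2.4.6, pandas 2.3.3 and scipy 1.17.1 were used for the rest. Same-numbered libraries deviated from their bull's mean with r = -0.00837, 0.034 and 0.0232 for numbers 1, 2 and 3, so the numbers do not pair the libraries. Alternatives were another pseudocount, filter, scaling or variance model, a replicate block, and leaving out each library.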

Additional observations from a re-analysis of the deposited data

How the results depend on the processing

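In the 78 alternative fits of the 6 genes, 0 reversed a direction and 0 gave an adjusted p under 0.05 (range 0.612 to 0.969), among them fits with the replicate block, in which the log2FC of THRB was -1.97 with an unadjusted limma p of 0.200 on 6 libraries in all. BCL2L1, EHD2 and GSG1L did not reach a mean of 5 FPKM, the stricter filter, and were not tested there. Nor were these genes tested without the library with most of their reads, where they fell below the filter of 1 FPKM. The count of 0 reversed directions and the ranges below therefore leave those fits out. For GSG1L the means without that library, replicate 3 of Bull1, were 0 FPKM in Bull1 against 0.391 in Bull2, the reverse direction. With a pseudocount of 0.1 the log2FC was -2.45 for BCL2L1, 2.88 for EHD2 and -3.09 for THRB, and after quantile normalization it was -0.40 for BCL2L1, which brought the median of all genes from -0.29 to -0.03. With 1 library left out, the log2FC ranged from -2.10 to -1.03 for BCL2L1, from -0.69 to -0.21 for DOCK2, from 1.28 to 2.37 for EHD2, from 0.59 to 1.36 for GSG1L, from -2.49 to -0.97 for PDE7B and from -3.03 to -0.67 for THRB. The number of the 6 genes with an unadjusted p under 0.05 was then from 0 to 1, the 1 being PDE7B without replicate 2 of Bull1.

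Over all genes, 0 passed an adjusted p under 0.05 with an |log2FC| over 2, 2 did after quantile normalization and 1 with the replicate block. With 1 library left out the number was from 0 to 29, with 19, 29 and 7 when replicates 1, 2 and 3 of Bull1 were left out. The cause was not tested. The levels rose when each library was rescaled to 1000000, by the construction of that scale, so that the mean of DOCK2 was 47.7 over the 6 libraries, 39.9 in Bull1 and 55.5 in Bull2, and the mean in Bull2 was 64.8 for PDE7B and 40.3 for THRB. With median-of-ratios scaling the mean of DOCK2 in Bull2 was 31.8. The closest profile depended on the measure for DOCK2 (ZNF366 by rho, CDHR1 with a pseudocount of 0.1), and by rho also for PDE7B (STOX2) and THRB (BCAN). For GSG1L, MBOAT7 tied with HSPBP1 by rho.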
